A study of Mus musculus with 6 samples.

Results

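The epidermal growth factor (EGF) and neuregulin ligands and the ERBB receptors were followed as 10 genes. The libraries came from cultures labelled as enteric glia (EGCs, the glial cells of the enteric nervous system). These cultures were kept with or without lipopolysaccharide (LPS), a component of the bacterial outer membrane. The members were chosen by gene symbol, namely the 6 ligand genes Areg, Ereg, Hbegf, Tgfa, Btc and Nrg1 and the 4 receptor genes Egfr, Erbb2, Erbb3 and Erbb4. Each symbol was found once among the 46603 genes of the count files. Of the 10 genes, 9 had enough counts to be tested and Erbb4 did not.

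All cells came from whole intestines of C57BL/6J mouse embryos (E14.5), which were dissociated and grown for 1 week as neurospheres, floating clusters of progenitors, in B27 medium with 40 ng/ml EGF and 20 ng/ml FGF. EGF, itself a ligand of EGFR, was thus given to the cells of both groups before the comparison began. The cells were then plated on coated dishes and grown to confluence in DMEM with 10% serum, a medium for which no added EGF is listed. The 3 control libraries carried the treatment label NIL, and the 3 LPS libraries came from cells kept with 100 ng/ml LPS for 12 h. The culture was not sorted, so it could hold any cell of the embryonic gut wall that survived these steps. The labels number the libraries 1 to 3 in each group without saying whether a number stands for a separate culture or litter, so the p-values measure only the spread between these libraries, which may be technical.

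The libraries held between 18775316 and 23664312 counts. A gene with 3 counts or fewer was taken as at the detection floor, which covers counting error only and lay between 0.124 and 0.167 CPM (counts scaled to a common, normalized library size). Of 9 glial markers, 8 lay above the floor in all 6 libraries, and together the markers summed to 335 to 482 CPM. This was below the sums of the mesenchymal and macrophage markers in every library. Sox10, the glial lineage factor, lay at 73.8 to 101 CPM and was not called, whereas other glial markers changed, with S100b falling from 22.2 ± 2.20 to 5.92 ± 3.08 CPM (edgeR adjusted p = 0.0238), Cdh19 from 143 ± 29.1 to 90.3 ± 4.93 CPM (0.0457) and Fabp7 rising from 2.55 ± 0.256 to 6.27 ± 1.05 CPM (0.0122). The 8 mesenchymal markers had the highest sum of any class in all libraries but LPS replicate 3. That sum was 15124 to 16295 CPM over all 6 libraries. Of these markers, 2 rose (Dcn and Pdgfra) and 6 were not called, with a median log2 fold change of -0.14. A fit with the replicate number as a block gave 2 higher and 2 lower, beside 15.4% and 14.9% of all genes tested. Neuronal markers summed to 282 to 524 CPM, mesothelial to 34.6 to 95.4 CPM and endothelial to 15.5 to 74.4 CPM. Of 12 macrophage markers, 11 lay above the floor in all 6 libraries, and together they summed to between 3889 and 5248 CPM in the libraries numbered 1 and 2, to 11909 CPM in control replicate 3 and to 19710 CPM in LPS replicate 3. Most of that sum was Lyz2 (2888 of 3889 CPM in control replicate 1), and 1 marker of the list was called, Adgre1, which rose from 287 ± 164 to 1971 ± 1505 CPM (edgeR adjusted p = 0.0452). With the replicate number as a block, 5 macrophage markers were higher and 3 lower, beside 15.4% and 14.9% of all genes tested. All LPS libraries lay above all control libraries in 3 macrophage markers and below them in 1, beside 19.3% and 19.4% of all genes tested. The latter was Mrc1, at 427 ± 290 CPM without and 50.3 ± 70.1 CPM with LPS, which was not called (edgeR adjusted p = 0.145). All 8 smooth muscle markers fell with LPS, from summed levels of 2449 to 2691 CPM to levels of 689 to 963 CPM. None of 5 epithelial markers passed the filter on low counts, and their sum stayed at or below 0.885 CPM. In RNA from a bulk culture, fewer cells of a type and less RNA per cell cannot be told apart, and the part of these marker differences in the ERBB results was not tested. The ERBB levels are those of the whole culture and were not assigned to a cell type.

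ERBB ligands are made as membrane-anchored precursors, and metalloproteases of the ADAM family release the soluble growth factor from the cell surface. Amphiregulin, epiregulin, HB-EGF, TGF-alpha and betacellulin bind EGFR, some of them also ERBB4, whereas neuregulins bind ERBB3 and ERBB4. ERBB2 binds no known ligand and works as the preferred partner of the other receptors, while ERBB3 has little kinase activity of its own and signals through such a partner. The receptors feed the RAS-ERK and PI3K-AKT pathways, and ERBB3 is a receptor through which neuregulin supports neural crest cells and the glia that descend from them.

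In the GENCODE M21 annotation of GRCm38, 3 of the ligand genes lay together on chromosome 5. Ereg (ENSMUSG00000029377) spans 91074622 to 91093646 on the plus strand, Areg (ENSMUSG00000029378) spans 91139599 to 91148432 on the plus strand, and Btc (ENSMUSG00000082361) spans 91357261 to 91402994 on the minus strand. The gap between Ereg and Areg is 45952 bases and the gap between Areg and Btc is 208828 bases. Epgn, which encodes the further EGFR ligand epigen, ends 39406 bases before Ereg. The other ligand genes lie elsewhere, with Tgfa (ENSMUSG00000029999) on chromosome 6 from 86195223 to 86275719 on the plus strand and Nrg1 (ENSMUSG00000062991) on chromosome 8 from 31814551 to 32884029 on the minus strand. The Hbegf identifier was ENSMUSG00000024486.

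RefSeq promoter windows of GRCm38.p6, from 250 bases before to 50 bases after the gene start, were matched for 6 of the 10 members (Areg, Btc, Tgfa, Egfr, Erbb2 and Erbb4). They are shown for Areg, because it holds the motif matches found among the members, for Tgfa, because its level moved opposite to that of Areg, and for Btc, because it lies in the same cluster as Areg. The windows are chr5:91139349-91139648 on the plus strand for Areg, chr6:86194972-86195271 on the plus strand for Tgfa and chr5:91402945-91403244 on the minus strand for Btc. Each is written 5′ to 3′ along the gene's strand, with matches to the searched motifs in capitals.
Areg: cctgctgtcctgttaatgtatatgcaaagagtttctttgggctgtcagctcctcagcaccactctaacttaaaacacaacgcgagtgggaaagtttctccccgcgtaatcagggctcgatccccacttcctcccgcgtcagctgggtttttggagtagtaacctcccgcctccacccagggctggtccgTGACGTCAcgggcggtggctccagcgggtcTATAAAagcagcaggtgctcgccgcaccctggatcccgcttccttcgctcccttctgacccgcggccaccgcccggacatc
Tgfa: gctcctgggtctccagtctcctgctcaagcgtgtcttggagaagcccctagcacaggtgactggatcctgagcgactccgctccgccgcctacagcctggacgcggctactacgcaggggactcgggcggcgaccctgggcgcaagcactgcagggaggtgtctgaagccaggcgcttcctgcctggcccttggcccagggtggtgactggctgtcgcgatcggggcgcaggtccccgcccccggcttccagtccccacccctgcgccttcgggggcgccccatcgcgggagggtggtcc
Btc: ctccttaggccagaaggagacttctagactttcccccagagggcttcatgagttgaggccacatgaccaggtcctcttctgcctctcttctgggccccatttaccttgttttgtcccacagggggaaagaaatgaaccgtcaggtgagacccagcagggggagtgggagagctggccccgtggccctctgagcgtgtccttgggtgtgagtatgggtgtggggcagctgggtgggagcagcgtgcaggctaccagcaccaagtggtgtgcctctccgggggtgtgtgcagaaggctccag
In the Areg window, TGACGTCA, the cAMP response element, begins 61 bases before the start, and TATAAA, the core of a TATA box, begins 31 bases before it, both on the gene's strand. Over all 32851 windows, TGACGTCA was found in 1.79% and TATAAA in 13.6%, on either strand. Of the 6 member windows, only that of Areg held a match to either. The AP-1 motif TGANTCA (7.81% of all windows), the kappaB-like motif GGNNTTTCC (5.82%) and the SOX motif ACAAAG (18.7%) had no match on either strand in the 6 member windows. The motifs do not overlap in these windows, and a match describes letters only, not binding.

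To determine whether LPS changed the ERBB genes, the LPS and control libraries were compared in an edgeR fit over all 15226 genes that passed the filter. Of the 9 members tested, 3 rose (Ereg, Areg and Hbegf) and 1 fell (Tgfa) at an adjusted p under 0.05, all of them ligands. Over all genes tested, 9.09% rose and 6.71% fell. All 3 LPS libraries lay above all 3 control libraries in 6 members, as in 19.3% of all genes tested, and below them in 1 member, as in 19.4% of all genes tested. The median log2 fold change was 0.79 over the 9 members and -0.02 over all genes tested. Areg passed the filter only through its LPS libraries, so it would not have been tested without a higher level there. With the replicate number as a block, 5 members rose and 1 fell, beside 15.4% and 14.9% of all genes, and the members gained were Nrg1 and Egfr. In DESeq2, 6 members rose and 1 fell, beside 13.7% and 11.0% of all genes, with Btc as the further gain. The split over all genes depended on scaling, with 1384 genes higher and 1022 lower in the main comparison, 1050 higher and 1589 lower with upper-quartile factors, and 986 higher and 2054 lower by library size alone. The median of all genes moved to -0.12 and -0.18 under these 2 scalings and that of the members to 0.69 and 0.64, while the same count of 3 members higher and 1 lower was found.

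Ereg encodes epiregulin and showed the largest change of the 9 tested members. It was measured at 21.7, 19.9 and 13.7 CPM in control replicates 1, 2 and 3 and at 134, 127 and 129 CPM in LPS replicates 1, 2 and 3. The groups lay far apart, and the LPS libraries differed from each other less than the control libraries did. The mean was 18.4 ± 4.20 CPM (SD, n = 3) without and 130 ± 3.34 CPM (SD, n = 3) with LPS, a 7.05-fold rise and a log2 fold change of 2.82 ± 0.18 (SE, edgeR adjusted p = 0.000803). The call was made in all 15 alternatives run, with a highest adjusted p of 0.0105 without control replicate 2. Ereg shares 141 exon bases, 3.42% of its exon length, with the antisense gene Gm19610, which had 178 counts over all 6 libraries.

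Areg encodes amphiregulin, the neighbour of epiregulin in the cluster and likewise an EGFR ligand. Its level was low throughout, with 8, 13 and 4 counts in the control and 41, 36 and 30 counts in the LPS libraries, or 0.339, 0.575 and 0.165 CPM against 2.03, 2.01 and 1.57 CPM. Every LPS library lay above every control library, and control replicate 3 was close to the detection floor. The log2 fold change was 2.36 ± 0.44 (SE, edgeR adjusted p = 0.0215) with a 95% interval from 1.29 to 3.44, which corresponds to a 5.15-fold rise. The call did not hold without control replicate 1 (adjusted p = 0.0954), LPS replicate 1 (0.0769) or LPS replicate 2 (0.0866), and the log2 fold change stayed between 2.03 and 2.87 when any library was left out.

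Epgn, at the end of the same cluster, had 1, 1 and 4 counts in the control and 4, 2 and 10 counts in the LPS libraries and was not tested. Its highest value came from LPS replicate 3, the library with the highest macrophage marker sum. The groups overlapped, and 3 of the 6 libraries were at or below the floor.

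Hbegf encodes heparin-binding EGF-like growth factor, which binds EGFR and ERBB4. Its levels were 17.4, 16.5 and 14.8 CPM in the control and 28.5, 31.6 and 26.3 CPM in the LPS libraries. The groups did not overlap, and the difference exceeded the spread within either group. The mean went from 16.2 ± 1.34 CPM to 28.8 ± 2.65 CPM (SD, n = 3 each), a 1.78-fold rise and a log2 fold change of 0.83 ± 0.11 (SE, edgeR adjusted p = 0.00897). Without control replicate 2 the adjusted p was 0.0588, and in all other alternatives Hbegf was called higher.

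Tgfa encodes TGF-alpha, a ligand of EGFR, and it was the single member that fell. It lay at 8.73, 8.50 and 6.86 CPM in the control and at 4.74, 3.57 and 3.30 CPM in the LPS libraries, without overlap. The mean went from 8.03 ± 1.02 CPM to 3.87 ± 0.769 CPM (SD, n = 3 each), which is 2.07-fold lower with LPS, at a log2 fold change of -1.05 ± 0.20 (SE, edgeR adjusted p = 0.0239). The direction was the same in all alternatives, but the call was lost without control replicate 1 (adjusted p = 0.0965), control replicate 2 (0.111) or LPS replicate 2 (0.100). Tgfa shares 118 exon bases with Gm43917 on the other strand, which had no count in any library.

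**Figure D1:**
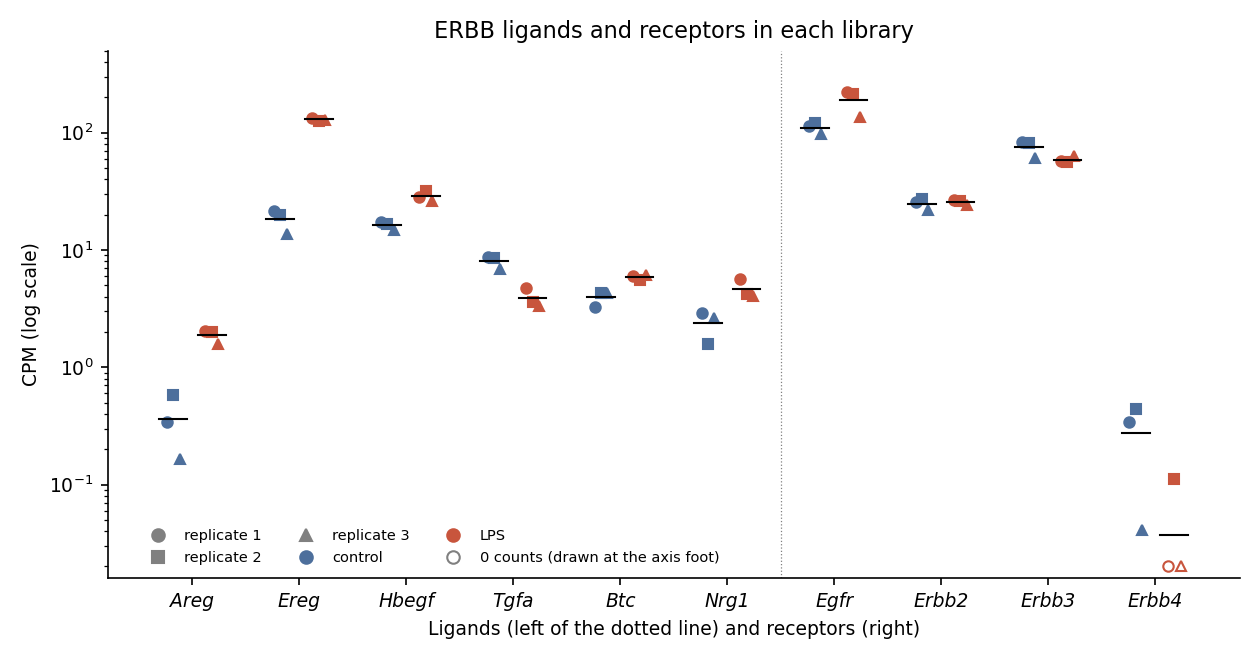
Level of each of the 10 genes in each of the 6 libraries, as CPM on a log scale, with control in blue, LPS in red, the symbol giving the replicate number and the black line the group mean. The LPS points of Ereg lie between 127 and 134 CPM, above control points of 13.7 to 21.7 CPM, those of Tgfa lie below the control points, and the open symbols of Erbb4 stand for libraries with 0 counts.

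Btc encodes betacellulin, a ligand of EGFR and ERBB4. It had 3.26, 4.29 and 4.30 CPM in the control and 5.98, 5.52 and 6.12 CPM in the LPS libraries, so that the groups did not overlap. The log2 fold change was 0.57 ± 0.17 (SE) with a 95% interval from 0.14 to 1.00, and edgeR's adjusted p of 0.0796 missed the threshold. Of the 15 alternatives, DESeq2 alone called it (adjusted p = 0.0240).

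Nrg1 encodes neuregulin 1, the ligand of ERBB3 and ERBB4. It was measured at 2.92, 1.59 and 2.65 CPM in the control and at 5.68, 4.24 and 4.08 CPM in the LPS libraries, again without overlap between the groups. The log2 fold change of 0.96 ± 0.29 (SE) had a 95% interval from 0.26 to 1.67 and an edgeR adjusted p of 0.0759. With the replicate number as a block it was 0.98 ± 0.21 (SE) and passed the threshold (adjusted p = 0.0320), as it did in DESeq2 (0.0178) and without both libraries numbered 3 (0.0308). The highest adjusted p, 0.204, was found without LPS replicate 1, the library with the highest Nrg1 level. Nrg1 shares 482 exon bases, 4.66% of its exon length, with Gm26578 on the other strand, which had 18 counts in total.

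Of the receptors, none was called in the main comparison. Egfr (ENSMUSG00000020122), on chromosome 11 from 16752203 to 16918158 on the plus strand, encodes the receptor for EGF and for the ligands of the chromosome 5 cluster. Its levels were 114, 120.3 and 97.1 CPM in the control and 224, 214 and 135 CPM in the LPS libraries. All LPS libraries lay above all control libraries, but LPS replicate 3 stood well below the other 2 LPS libraries. The mean was 110 ± 12.0 CPM without and 191 ± 48.7 CPM with LPS (SD, n = 3 each). The edgeR adjusted p of 0.0552 missed the threshold at an estimated log2 difference of 0.79 ± 0.21 (SE), with a 95% interval from 0.28 to 1.31.

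Whether Egfr was called depended on the libraries used, on the design of the fit and on the test. With all 6 libraries and the group as the only term, DESeq2 called it higher (0.81 ± 0.24 SE, adjusted p = 0.00530). Without LPS replicate 3 its log2 fold change was 0.99 ± 0.11 (SE) and the call was made (edgeR adjusted p = 0.00427). With the replicate number as a block the value was 0.76 ± 0.11 (SE, adjusted p = 0.0129), and without both libraries numbered 3 it was 0.93 ± 0.06 (SE, adjusted p = 5.36e-05). The latter comparison was chosen after the data were seen. Leaving out any of the other 5 libraries left Egfr uncalled, with a highest adjusted p of 0.173 without LPS replicate 2. LPS replicate 3 also held the highest macrophage marker sum, and the part of that difference in the Egfr level was not tested.

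Erbb2 (ENSMUSG00000062312) lies on chromosome 11 from 98412470 to 98437716 on the plus strand and encodes the partner receptor without a ligand. It was measured at 25.8, 27.0 and 21.7 CPM in the control and at 26.4, 26.0 and 24.3 CPM in the LPS libraries, and the groups overlapped. The log2 fold change was 0.04 ± 0.11 (SE, edgeR adjusted p = 0.825), and its 95% interval from -0.22 to 0.31 holds changes in either direction. Its sign turned with the scaling, to -0.06 with upper-quartile factors and -0.11 by library size alone, and to -0.03 without control replicate 3.

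Erbb3 (ENSMUSG00000018166), on chromosome 10 from 128567523 to 128589652 on the minus strand, encodes the neuregulin receptor of crest-derived glia. Its levels were 84.1, 81.1 and 60.9 CPM in the control and 57.2, 56.7 and 62.9 CPM in the LPS libraries. Control replicate 3 lay among the LPS libraries, and it was also the control library with the lowest glial marker sum (335 CPM, beside 482 and 435 CPM in control replicates 1 and 2 and 366 to 379 CPM in the LPS libraries). Whether glial content had a part in the Erbb3 levels was not tested. The log2 fold change was -0.36 ± 0.14 (SE) with a 95% interval from -0.69 to -0.02 and was not called (edgeR adjusted p = 0.140). It was -0.47 ± 0.08 (SE, adjusted p = 0.0262) without control replicate 3 and -0.51 ± 0.06 (SE, adjusted p = 0.000743) without both libraries numbered 3.

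Erbb4 (ENSMUSG00000062209), on chromosome 1 from 68032186 to 69108059 on the minus strand, encodes the receptor that binds neuregulins as well as HB-EGF and betacellulin. It had 8, 10 and 1 counts in the control and 0, 2 and 0 counts in the LPS libraries. It was above the floor of 3 counts only in control replicates 1 and 2, and a fit without the filter gave an adjusted p of 0.255 in edgeR. At this depth, no difference between the groups could be shown for Erbb4.

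Without both libraries numbered 3, in the comparison of 2 against 2 libraries chosen after the data were seen, 5 members rose (Areg, Ereg, Hbegf, Nrg1 and Egfr) and 2 fell (Tgfa and Erbb3), beside 22.6% and 20.4% of all genes tested there.

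**Figure D2:**
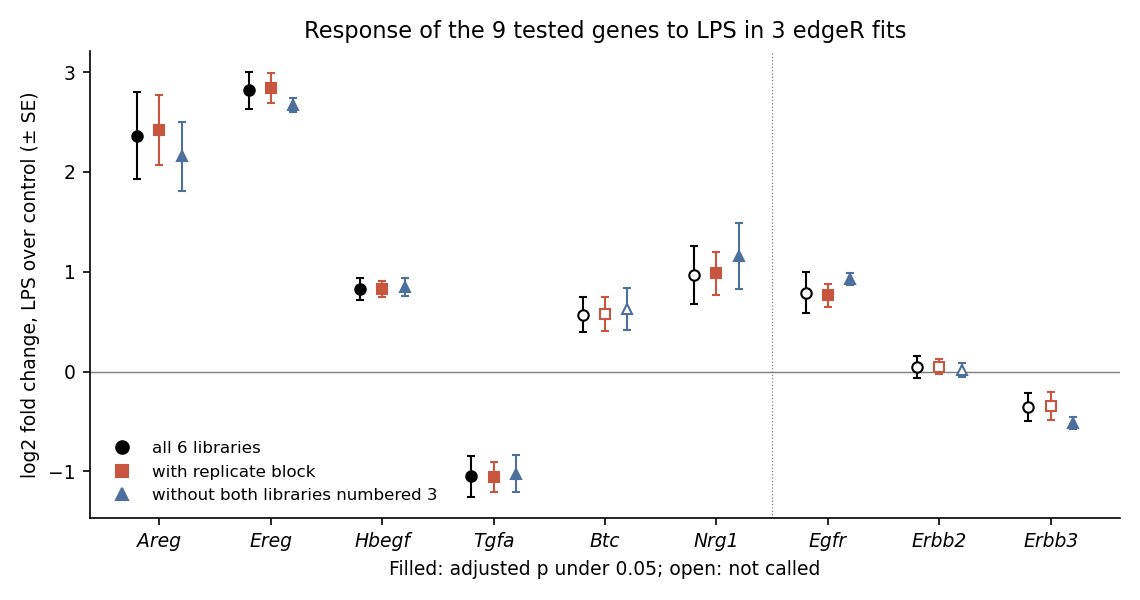
Log2 fold change of LPS over control (y axis) for each of the 9 tested genes in 3 edgeR fits: all 6 libraries, the replicate number as a block, and without both libraries numbered 3. Points are estimates, bars ± SE, and filled symbols have an adjusted p under 0.05. Ereg, Areg and Hbegf are filled above 0 and Tgfa below 0 in all 3 fits, Nrg1 and Egfr are filled in the latter 2 fits, and Erbb3 in the last.

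To compare the members with each other, levels were expressed per kilobase of exon (CPM per kb). In the control libraries the order was Erbb3 (12.5 ± 2.10), Egfr (9.75 ± 1.06), Erbb2 (4.76 ± 0.525), Ereg (4.46 ± 1.02), Hbegf (3.35 ± 0.276), Tgfa (1.24 ± 0.157), Btc (0.874 ± 0.132), Areg (0.296 ± 0.169), Nrg1 (0.231 ± 0.0678) and Erbb4 (0.0222 ± 0.0169), each as mean ± SD of CPM per kb with n = 3. The ranges of neighbours overlapped for Erbb3 and Egfr, Erbb2 and Ereg, Ereg and Hbegf, and Areg and Nrg1. Erbb3 and Egfr transcripts thus stood at the head of the family in control cells.

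With LPS, Ereg moved from place 4 to place 1, at 31.5 ± 0.810 CPM per kb. It was followed by Egfr (16.9 ± 4.30), Erbb3 (9.79 ± 0.576), Hbegf (5.96 ± 0.548), Erbb2 (4.91 ± 0.219), Areg (1.54 ± 0.212), Btc (1.30 ± 0.0702), Tgfa (0.596 ± 0.119), Nrg1 (0.451 ± 0.0853) and Erbb4 (0.00301 ± 0.00521), again as CPM per kb. Here the ranges overlapped only for Areg and Btc and for Tgfa and Nrg1. Per kilobase of the longest transcript in place of all exons, Hbegf came to place 3 in both groups (5.61 ± 0.462 and 9.97 ± 0.916 CPM per kb), because that transcript is 2890 bases against 4834 bases of exon, and it then stood above Erbb2 (4.95 ± 0.546 CPM per kb) and Ereg (4.46 ± 1.02 CPM per kb) in the control libraries, so that Hbegf and not Ereg was the highest control ligand. By that length Nrg1 came before Areg in the control and before Tgfa in the LPS libraries.

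The 6 ligands summed to 11.5, 11.1 and 8.77 CPM per kb in the control and to 42.5, 41.1 and 40.3 CPM per kb in the LPS libraries. By all exons, epiregulin transcripts made up 42.3% ± 4.09 of that sum in the control and 76.2% ± 1.44 in the LPS libraries (SD, n = 3 each). The share of Hbegf went from 32.3% ± 2.21 to 14.4% ± 1.28 although its own level rose, and that of Tgfa went from 11.9% ± 0.182 to 1.44% ± 0.246. The ratio of Ereg to Tgfa was 3.91, 3.68 and 3.13 in the control and 44.3, 56.0 and 61.6 in the LPS libraries, so these groups lay apart in all 3 measures. They are descriptions of the levels above and were given no test.

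The 4 receptors summed to 29.0, 29.3 and 22.9 CPM per kb in the control and to 34.4, 33.3 and 27.1 CPM per kb in the LPS libraries. The groups overlapped, while within each replicate number the LPS library was the higher (3 of 3). Within the sum, Egfr made up 34.6%, 36.2% and 37.5% in the control and 57.6%, 56.7% and 44.1% in the LPS libraries, and Erbb3 made up 48.2%, 46.0% and 44.3% in the control and 27.6%, 28.3% and 38.7% in the LPS libraries. Erbb3 exceeded Egfr in every control library, with Egfr to Erbb3 ratios of 0.718, 0.788 and 0.846, and Egfr exceeded Erbb3 in every LPS library, with ratios of 2.08, 2.002 and 1.14. LPS replicate 3 was the library nearest to the control libraries in both shares.

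**Figure D3:**
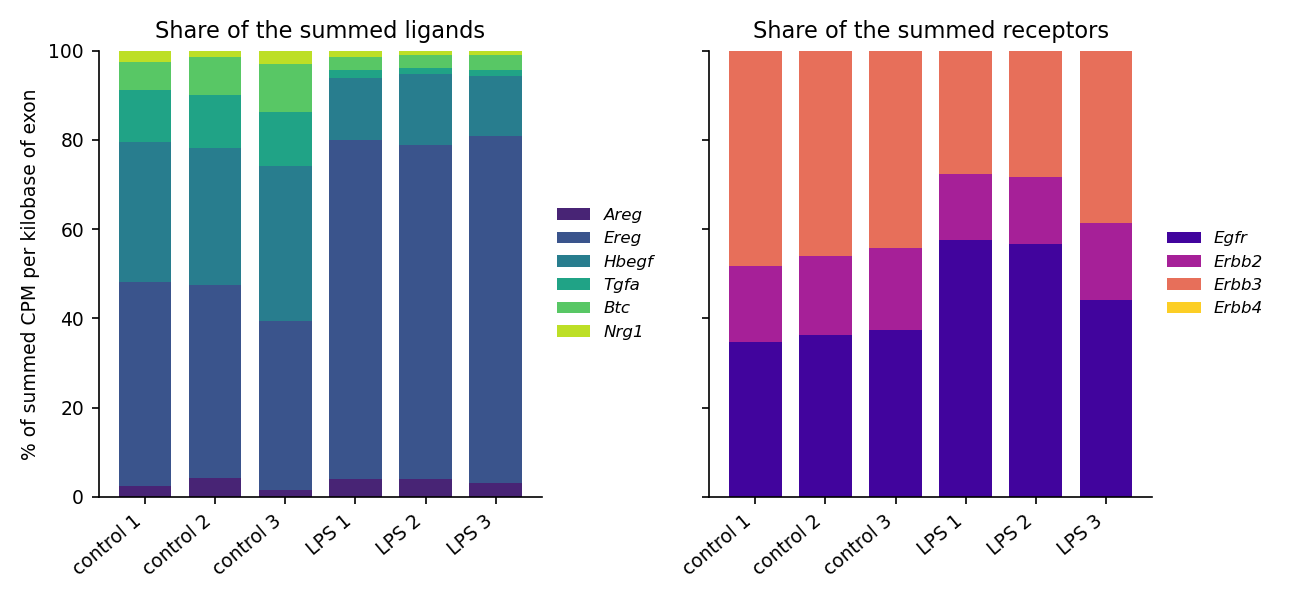
Share of each gene in the summed CPM per kilobase of exon, for the 6 ligands (left) and the 4 receptors (right), with a stacked bar for each library. Ereg makes up 37.8% to 45.8% of the ligand sum in the control and 74.8% to 77.7% in the LPS libraries, and Egfr 34.6% to 37.5% and 44.1% to 57.6% of the receptor sum.

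The genes around the family were then read from the same fit in 5 lists, in which 13 genes rose and 8 fell, and no p was computed over a list. Of the 85 list genes tested, 15.3% rose and 9.41% fell, beside 9.09% and 6.71% of all genes tested, and with the replicate block 24.7% rose and 18.8% fell, beside 15.4% and 14.9%. Of the 5 other ERBB ligands, 4 were tested, with a median log2 fold change of -0.26 beside -0.02 over all genes. Nrg2 fell, from 1.91, 1.51 and 0.992 CPM to 0.297, 0.502 and 0.419 CPM (log2 fold change -1.85 ± 0.37, edgeR adjusted p = 0.0257). Nrg4 rose, from 0.254, 0.398 and 0.207 CPM to 0.791, 0.613 and 1.05 CPM (1.50 ± 0.38, adjusted p = 0.0484), but it was called in only 2 of 14 alternatives and lost with the replicate block (adjusted p = 0.0603) and whichever library was left out (0.0825 to 0.160). The Nrg2 call was lost without control replicate 1 or 2 or LPS replicate 1 or 2 (adjusted p = 0.0818 to 0.111). Nrg2 passed the filter only through its control libraries (45, 34 and 24 counts, against 6, 9 and 8 with LPS) and Nrg4 only through its LPS libraries (16, 11 and 20 counts, against 6, 9 and 5), and neither could be tested with a filter of 10 counts in every library. Nrg3, at 0.661 to 2.39 CPM in the control and 0.628 to 2.08 CPM in the LPS libraries, was not called (adjusted p = 0.914).

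Of 13 genes for ligand shedding, 2 rose and 2 fell, with a median log2 fold change of -0.14. Adam17, the protease that releases most EGFR ligands, rose from 114, 127 and 155 CPM to 251, 262 and 316 CPM (1.07 ± 0.15, edgeR adjusted p = 0.0104). Rhbdf2, the carrier that brings ADAM17 to the cell surface, rose from 24.5, 26.6 and 42.4 CPM to 74.97, 76.0 and 134 CPM (1.61 ± 0.32, adjusted p = 0.0272). Both were highest in the libraries numbered 3 of their group, those with the highest macrophage marker sums, and the part of macrophages in these levels was not tested. In the edgeR comparison without both libraries numbered 3, Rhbdf2 was called at an adjusted p of 1.11e-05, and Adam17 was called as well. That comparison was chosen after the data were seen and called 22.6% of all genes tested higher. The libraries it kept also held macrophage markers, at summed levels of 3889 to 5248 CPM.

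Timp3, the tissue inhibitor that blocks ADAM17, fell from 1262, 1087 and 1083 CPM to 299, 241 and 345 CPM (-1.96 ± 0.16, edgeR adjusted p = 0.00176). Bace1, a protease that cleaves neuregulin 1, fell from 108, 103 and 94.8 CPM to 69.9, 64.1 and 73.9 CPM (-0.56 ± 0.09, adjusted p = 0.0138). Thus Adam17 and Rhbdf2 rose, Timp3 and Bace1 fell, and the other 9 genes of the list were not called. All LPS libraries lay above all control libraries in 4 of the 13 genes and below them in 5, beside 19.3% and 19.4% of all genes tested. Genes with opposite roles stand in this list. Timp3 was called in all 15 alternatives, Adam17 was lost without control replicate 2 (adjusted p = 0.0659), and Rhbdf2 and Bace1 were lost without control replicate 1 or 2 or LPS replicate 1 or 2 (0.0599 to 0.121 and 0.0593 to 0.0767). With the replicate block, 3 genes of this list rose and 3 fell, the gains being Adam15 (0.35, adjusted p = 0.0277) and Adam10 (-0.40, adjusted p = 0.0138), the protease for epidermal growth factor and betacellulin.

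Of 18 genes for receptor turnover and inhibition, 17 were tested, 3 rose and 1 fell, with a median log2 fold change of 0.20. Errfi1, the feedback inhibitor that binds the EGFR kinase, rose from 33.5, 31.7 and 43.3 CPM to 96.2, 116 and 73.5 CPM (1.40 ± 0.20, edgeR adjusted p = 0.0115). Ptpn2, a tyrosine phosphatase that acts on EGFR, rose from 23.7, 23.0 and 22.8 CPM to 41.4, 43.5 and 38.3 CPM (0.82 ± 0.08, adjusted p = 0.00328). Hgs, which sorts ubiquitinated receptors in endosomes, rose by less, from 83.6 ± 0.901 to 109 ± 1.41 CPM (0.38 ± 0.06, adjusted p = 0.0129), and Cblb, a ubiquitin ligase of activated receptors, fell from 59.6 ± 11.5 to 35.4 ± 4.02 CPM (-0.75 ± 0.16, adjusted p = 0.0333). Inhibitors of the receptor were thus found on both sides.

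Ptpn2 was called whichever library was left out. Errfi1 was lost without control replicate 1 or 2 (adjusted p = 0.0625 and 0.0677), and Hgs and Cblb without control replicate 1 or 2 or LPS replicate 1 or 2 (0.0593 to 0.0806 and 0.0689 to 0.117). Hgs was also lost by library size alone, at a log2 fold change of 0.22 (adjusted p = 0.0622). With the replicate block, 5 genes of the list rose and 1 fell, the gains being Lrig1 (0.59, adjusted p = 0.0197), which promotes the degradation of ERBB receptors, and Ptpn1 (0.38, adjusted p = 0.0147).

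Of 29 adaptors and transducers, 28 were tested, and 23 of them were not called, with a median log2 fold change of 0.03. Map2k1, which encodes the ERK kinase MEK1, rose from 137, 140.5 and 142 CPM to 308, 352 and 260.0 CPM (1.13 ± 0.12, edgeR adjusted p = 0.00422), and Map2k2 rose from 101 ± 4.25 to 122 ± 3.93 CPM (0.27 ± 0.07, adjusted p = 0.0477). The PI3K regulatory subunits Pik3r1 and Pik3r2 fell by 0.34 ± 0.07 and 0.32 ± 0.06 on the log2 scale (adjusted p = 0.0278 and 0.0276), and Plcg1, a phospholipase recruited to EGFR, fell by 0.54 ± 0.09 (adjusted p = 0.0150). Of these 5 genes, only Map2k1 was called whichever library was left out. The calls of Plcg1 and Pik3r2 were lost without control replicate 1 or 2 or LPS replicate 1 or 2 (0.0541 to 0.0869 and 0.0771 to 0.136), that of Pik3r1 also without control replicate 3 (0.0616 to 0.135), and those of Pik3r1 and Pik3r2 also without the filter (0.0526 and 0.0614). Map2k2 was called in 6 of 15 alternatives and was lost when any library other than control replicate 3 was left out (0.0583 to 0.184), by library size alone (0.240), with upper-quartile factors (0.126), without the filter (0.142) and in limma-voom (0.0505). With the replicate block, 6 genes of this list rose and 6 fell, the gains being Src, Stat5a, Nck1 and Ptpn11 higher (0.24 to 0.58, adjusted p = 0.00956 to 0.0369) and Pik3r3, Akt2 and Nras lower (-0.55 to -0.22, adjusted p = 0.0352 to 0.0430).

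Of 23 genes known to be induced through ERK, 5 rose, 1 fell and 17 were not called, with a median log2 fold change of -0.07. Only their RNA levels were read, and which signal moved them was not tested. Ier3 had the largest rise, from 25.4, 26.2 and 25.5 CPM to 366, 424 and 119 CPM (3.56 ± 0.49, edgeR adjusted p = 0.00921). Fosl1, which encodes the AP-1 subunit FRA1, went from 9.24, 8.41 and 7.40 CPM to 35.9, 33.6 and 12.8 CPM (1.71 ± 0.40, adjusted p = 0.0389), and Phlda1 went from 24.2, 20.1 and 17.8 CPM to 79.1, 74.0 and 36.2 CPM (1.61 ± 0.32, adjusted p = 0.0252). In these 3 genes, as in Egfr, LPS replicate 3 was the lowest of the LPS libraries and still lay above the control libraries.

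Junb, an AP-1 subunit, rose more evenly, from 71.5 ± 2.80 to 178 ± 11.8 CPM (1.31 ± 0.08, edgeR adjusted p = 0.000634), and Dusp5, an ERK phosphatase, rose from 15.3, 15.0 and 13.1 CPM to 20.2, 23.1 and 23.3 CPM (0.62 ± 0.11, adjusted p = 0.0201). Ccnd1, the G1 cyclin D1, fell from 532, 499 and 353 CPM to 215, 166 and 214 CPM (-1.22 ± 0.19, adjusted p = 0.0137). The immediate early genes Fos (43.4 ± 1.87 and 32.1 ± 10.4 CPM, adjusted p = 0.240) and Egr1 (65.2 ± 15.4 and 51.4 ± 11.0 CPM, adjusted p = 0.362) were not called. Fos was called lower without LPS replicate 3 (-0.73, adjusted p = 0.00434) and without both libraries numbered 3 (-0.68, adjusted p = 0.000631), and Egr1 was called lower with the replicate block (-0.34, adjusted p = 0.0344).

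Junb was called whichever library was left out. Ier3 was lost without control replicate 1 or 2 (adjusted p = 0.0555 and 0.0630), Dusp5 without these or LPS replicate 2 (0.0677 to 0.0882), Ccnd1 without control replicate 1 or 2 or LPS replicate 1 or 2 (0.0511 to 0.0720), and Fosl1 and Phlda1 on leaving out any library except LPS replicate 3 (0.0897 to 0.144 and 0.0616 to 0.114). Fosl1 was lost in limma-voom as well (0.0865). With the replicate block, 7 genes of the list rose and 5 fell, the gains being Egr2 (1.59, adjusted p = 0.00379) and Plaur (0.43, 0.0201) higher and Etv5 (-0.78, 0.00874), Dusp4 (-0.39, 0.0126), Spry4 (-0.55, 0.0461) and Egr1 lower.

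**Figure D4:**
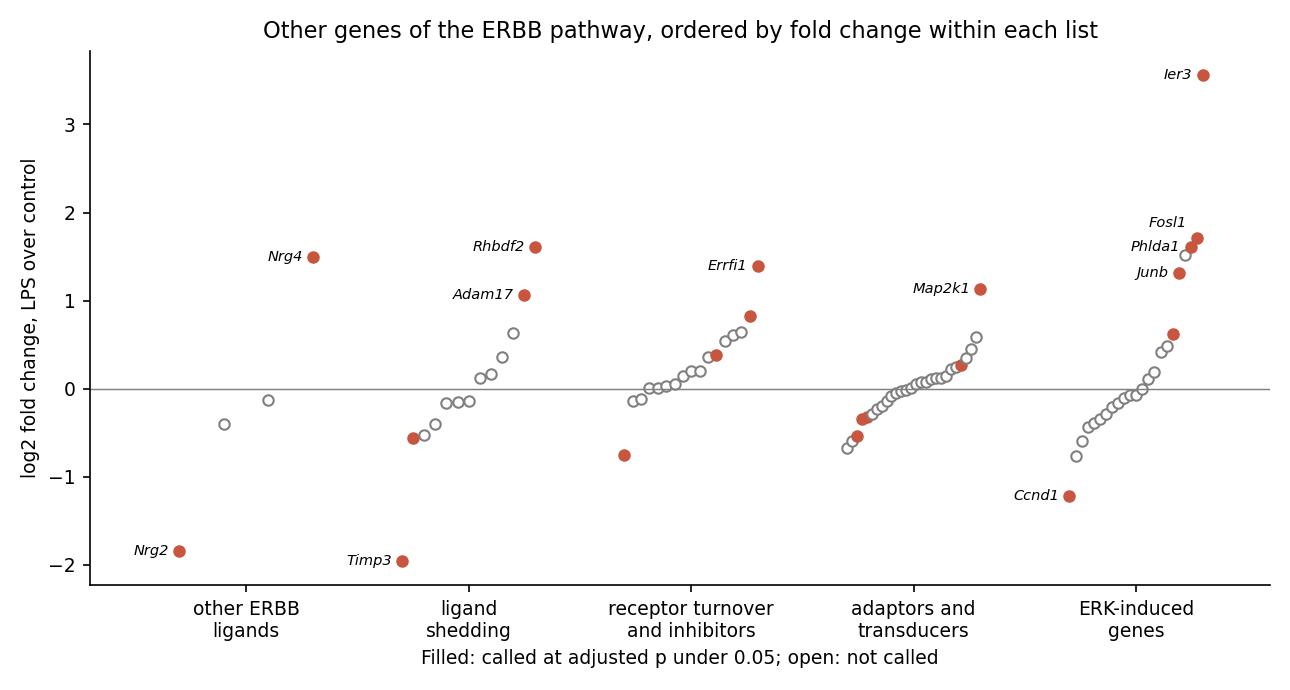
Log2 fold change of LPS over control (y axis) for each tested gene of the 5 lists around the ERBB family, ordered by value within a list. Filled points have an edgeR adjusted p under 0.05, and called genes with an absolute value over 1 are named. Most points are open and lie near 0, with Ier3 at 3.56 and Timp3 at -1.96 as the ends of the range.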

How the data were processed

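Poly(A) RNA of 6 libraries (3 control, 3 LPS) had been sequenced after preparation with a stranded kit. The deposited files hold whole-number counts, which the authors made by trimming and filtering reads, mapping them to GRCm38 and counting them for each gene. The submitters' processing notes name cutadapt 1.15, Bowtie2 2.3.3.1, STAR 2.5.2b, SAMtools 1.5 and featureCounts 1.5.3. The strand setting and the treatment of reads with several alignments are not given in the sources used here, so counts of overlapping antisense genes cannot be told apart with certainty. A second table of the whole series was not used.

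Counts were analysed in edgeR 4.0.16 (R 4.3.3). Genes were kept by filterByExpr (minimum count 10, minimum total 15), which left 15226 genes and dropped 9653 that had a count. TMM factors lay between 0.917 and 1.08. The groups were compared with the two-sided quasi-likelihood F-test, group as the only term, Benjamini-Hochberg adjusted over all genes tested and called under 0.05. The SE is the absolute log2 fold change over the square root of F. Alternatives were other scaling factors, other filters, DESeq2 1.42.0, limma-voom (limma 3.58.1), a replicate block and leaving out libraries, 15 in all. The procedure was tested on simulated counts.

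Libraries with the same number deviated together from their group means (correlations over genes of 0.513, 0.334 and 0.613 for numbers 1, 2 and 3, all over the limit of 0.1). The numbers were therefore used as pairs in the replicate block, an alternative, while the main comparison used no pairing. Crossed pairs of numbers 1 and 2 correlated about as much (0.419 and 0.323) and pairs with number 3 negatively (-0.564 to -0.396), so the data set number 3 apart and do not separate numbers 1 and 2. This pairing comes from the data, since the labels do not say what a number stands for.

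The members and gene lists were chosen with earlier results of these data known. All 10 members are named, and of each list the called genes, up to 5 in each direction. A few further genes (Epgn, Nrg3, Fos, Egr1 and those gained with the block) were named after their values were seen. Nrdc was matched through its older symbol. Coordinates are from GENCODE M21 and promoters from RefSeq GRCm38.p6. Protein sequences were not analysed here.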

Additional observations from a re-analysis of the deposited data

How the results depend on the processing

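Of the members, Ereg was called higher in all 15 alternatives, and no tested member other than Erbb2 changed direction. The log2 fold change of Erbb2 was 0.04 in the main comparison, -0.0606 with upper-quartile factors, -0.113 by library size alone and from -0.0275 (without control replicate 3) to 0.115 (without control replicate 2) when a library was left out. Upper-quartile factors gave 1589 genes lower in place of 1022, and library size alone gave 2054, with 13 list genes lower in place of 8. DESeq2 called 2079 genes higher, 1673 lower and 6 members higher. The replicate block called 2343 genes higher and 2273 lower, 5 members higher, and 21 list genes higher and 16 lower, and among the members it changed no call other than those of Nrg1 and Egfr. Without both libraries numbered 3, an alternative added after the data were seen, 3498 genes were called higher and 3159 lower, 5 members higher and 2 lower, and 27 list genes higher and 19 lower. Leaving out 1 library at a time gave 379 to 1964 genes higher and 112 to 1426 lower, 2 to 4 members higher and 0 to 2 lower, and 3 to 15 list genes higher and 1 to 14 lower. The lowest of these counts came without control replicate 2, and the cause was not tested. Areg could not be tested with a filter of 10 counts in every library. Depth limits Erbb4 and Epgn, which had 10 counts or fewer in each library.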
